A study of Mus musculus with 9 samples.

Results

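The 38 genes described here encode the core machinery of autophagy, the receptors that select its cargo, and the transcription factors TFEB and TFE3. They were chosen by name from the 54532 genes of the deposited expression table, and all 38 were found in it. RNA had been sequenced from primary mouse hepatocytes in 3 groups of 3 libraries. The WT groups came from COX-2 fl/fl mice without the Alb-Cre transgene and the COX-2 CKO group from their COX-2 fl/fl littermates with it, all on a C57BL/6 background and described as male. The Alb promoter drives Cre in hepatocytes, and whether other liver cells kept the gene was not tested. Cells were starved in 1% serum for 2 hours and then held for 24 hours with the vehicle DMSO (WT DMSO) or with 6 μmol/L tunicamycin (WT Tu and CKO Tu). No CKO group with vehicle was analysed here, so the deletion without stress is not covered. The labels do not say that replicates came from separate animals, and a p-value then covers only library-to-library spread, which may be technical.

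In autophagy a cup of membrane grows around cytoplasm, closes into an autophagosome and fuses with a lysosome. The ULK1 kinase complex starts the process, a class III PI3-kinase complex marks the membrane with a lipid, and lipid carriers feed the growing cup. A conjugation system then attaches small ubiquitin-like ATG8 proteins (the LC3 and GABARAP families) to the membrane, where cargo receptors bind them. Receptors of the endoplasmic reticulum (ER) direct pieces of that organelle to the lysosome, which is called ER-phagy. Tunicamycin blocks N-glycosylation and loads the ER with unfolded protein, and in liver autophagy also clears lipid droplets and mitochondria.

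Several facts of the whole series stand beside every result. Libraries held between 14897358 and 16001484 assigned fragments. Counts of Ptgs2, which encodes COX-2, were 0, 13 and 8 with vehicle, 8, 5 and 5 with tunicamycin, and 1, 1 and 2 after deletion, so the targeted gene was near the limit of counting in all groups, and which part of it was deleted is not stated. Hspa5, which encodes the ER chaperone BiP, went from 576 ± 14.4 FPKM in WT DMSO to 5312 ± 395 in WT Tu and 4862 ± 153 in CKO Tu (SD, n = 3). FPKM counts the fragments of a gene relative to its length and to library size. The label of male animals did not hold for the WT libraries. Xist, which female cells express, was at 20659 to 33657 fragments in these 6 libraries and at most 3 in a CKO library. Fragments of Ddx3y, Uty, Kdm5d and Eif2s3y, genes on the Y chromosome, were found only with the deletion, at 371 to 1996 per gene and library, and numbered 0 in WT. Genotype and sex therefore cannot be told apart in any comparison of the CKO group. The first WT Tu library differed most from its group, with 6.87% mitochondrial fragments against 5.25% and 5.90%.

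Hepatocyte markers summed to 16000 to 17800 FPKM in WT DMSO, 15900 to 17400 in WT Tu and 14000 to 14800 in CKO Tu. Each of the 8 was expressed in every group, and most of the sum came from Alb. Alb was lower in CKO Tu than in WT Tu (-0.47 on the log2 scale, limma adjusted p = 0.0011). With tunicamycin in WT cells Hnf4a and Ttr were lower (-0.72 and -0.19, limma adjusted p = 0.00052 and 0.047). The other 6 were not called at an adjusted p below 0.05. Summed FPKM of 8 endothelial markers was 10.2 to 11.2 in WT DMSO, 3.85 to 5.25 in WT Tu and 2.96 to 3.34 in CKO Tu. That of 6 cholangiocyte markers was 22.7 to 25.9, 22.8 to 24.3 and 34.3 to 38.3, most of it from Spp1. Summed FPKM of 8 Kupffer cell markers was 75.2 to 92.8, 96.9 to 115 and 92.7 to 107, nearly all from Cd68, with Vsig4 at 0 throughout. Without Cd68 the markers went the other way with tunicamycin: Lyz2 fell from a mean of 1.48 to 0.149 FPKM (limma adjusted p = 0.00073), and Mpeg1 and Csf1r, below the filter, had ratios of means of 0.386 and 0.377 without overlap. The 8 stellate markers summed to 5.37 to 6.47, 4.94 to 5.67 and 6.46 to 7.13, mostly from Ecm1. Among them Reln had a mean of 0.131, 0.121 and 1.90 FPKM, higher in CKO Tu than in WT Tu (limma adjusted p = 5.4e-05). The 8 lymphocyte and neutrophil markers summed to at most 1.05 in any library. The part of these cells in the results was not tested, and in bulk samples fewer cells of a type and less RNA per cell cannot be told apart.

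All tests across genes used limma on log2(FPKM + 1), on 11858 genes that had at least 1 FPKM in at least 3 libraries, with a call at an adjusted p below 0.05. Of the 38 autophagy genes, 36 passed this filter, and Ccpg1 and Tfeb did not. In WT DMSO 4 of the 5 ATG8 genes had the highest FPKM of the 38. Gabarap led with 113 ± 3.46 FPKM, followed by Map1lc3a at 86.2 ± 3.87, Gabarapl1 at 72.9 ± 7.20 and Gabarapl2 at 49.1 ± 2.23 (SD, n = 3). At the other end, Ulk2, Atg9a, Atg4a, Atg4c, Atg4d, Atg10 and Calcoco1 averaged between 1.70 and 2.97 FPKM there. FPKM divides by the summed length of a gene's annotated exons, which was 1181 bases for Map1lc3a and 7517 for Map1lc3b, so the order of genes depends on that annotation.

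The first comparison, WT Tu against WT DMSO, measures the response of wild-type hepatocytes to ER stress. Of the 36 autophagy genes tested, 16 were higher, 7 lower and 13 not called with tunicamycin. Across all genes tested 33.6% were called, 17.7% higher and 15.9% lower, so the lower calls were near the background share. The median log2 change of the 36 genes was 0.12, beside 0.00 over all genes tested. Scaling to total fragments moved the median of all genes to -0.11 and that of the autophagy genes to -0.01, with 13 higher and 8 lower. Without WT Tu replicate 1 the counts were 16 and 7 again. The 2 groups did not overlap for 26 of the 36, where 46.7% of all genes tested did not. The largest rises were in Atg13 and the ER-phagy receptor gene Retreg1, and the largest falls in Map1lc3a (-0.59) and Calcoco1 (-0.48). Map1lc3a led the falls through WT Tu replicate 1, without which its change was -0.35.

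**Figure D1:**
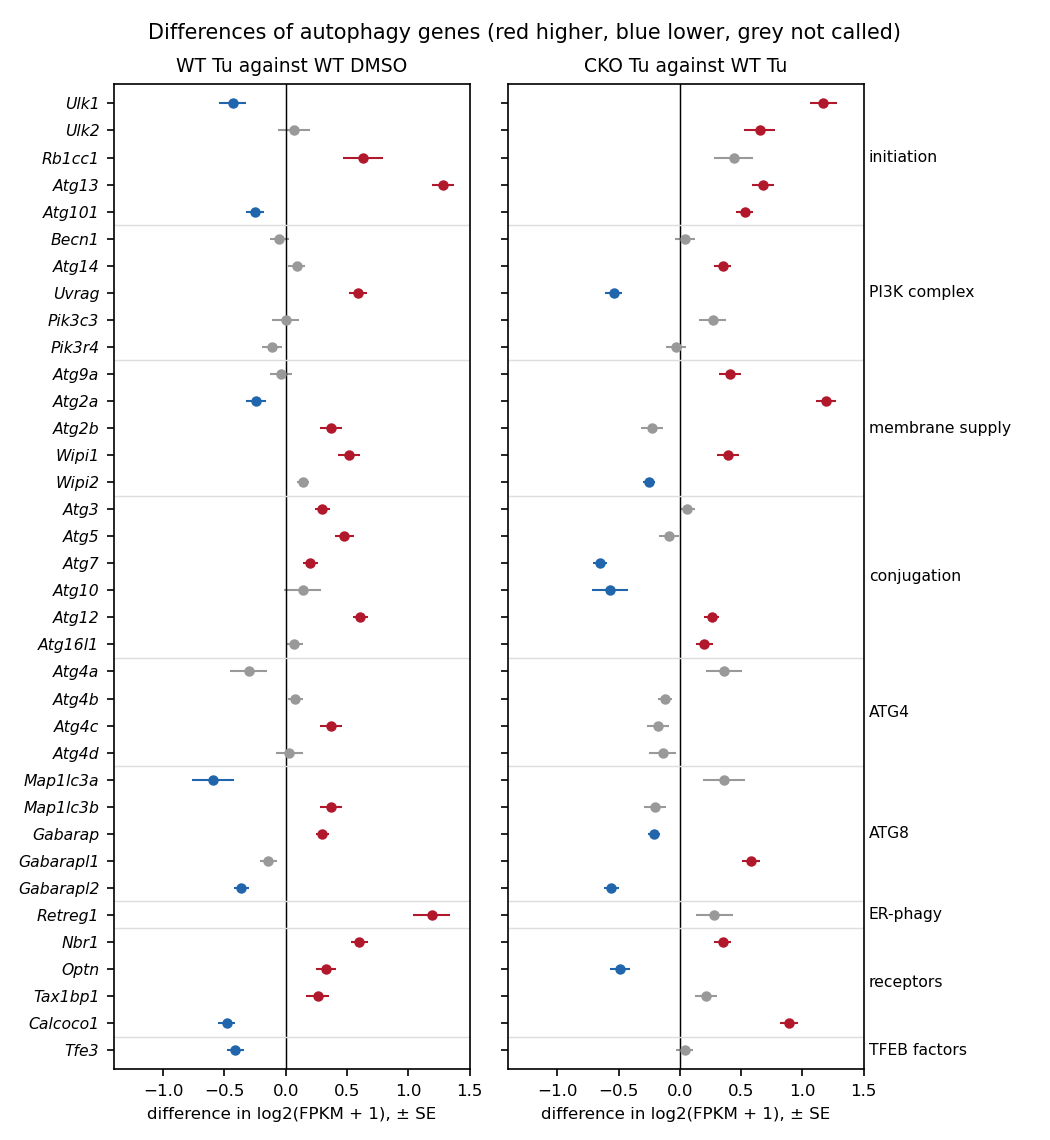
Difference in log2(FPKM + 1) with its standard error for the 36 tested autophagy genes, in WT Tu against WT DMSO (left) and CKO Tu against WT Tu (right), ordered by role; both panels use the WT Tu libraries. Red marks genes called higher (16 left, 13 right), blue genes called lower (7 in each) and grey genes not called.

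Within the initiation complex the genes moved apart. Atg13 (ENSMUSG00000027244, chromosome 2, 91674618 to 91710576, mm10) encodes the subunit that holds the ULK1 complex together. It was at 14.0, 10.7 and 11.4 FPKM in WT DMSO and at 32.4, 30.7 and 28.7 in WT Tu. The lowest treated library was thus above every vehicle library, a rise of 1.28 ± 0.09 (SE) on the log2 scale (adjusted p = 1.6e-05). Rb1cc1, which encodes the scaffold FIP200, went from 3.78, 2.83 and 2.90 to 7.49, 4.67 and 4.53 FPKM, highest in WT Tu replicate 1 (0.63 ± 0.16 SE, adjusted p = 0.016). This rise did not pass once replicate 2 or 3 of WT DMSO was left out (adjusted p = 0.056 each).

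Ulk1 (chromosome 5, 110784488 to 110810097, mm10), which encodes the kinase itself, was lower with tunicamycin. It had 6.46, 4.96 and 4.82 FPKM in WT DMSO against 3.46, 3.61 and 4.14 in WT Tu, groups that did not overlap (-0.43 ± 0.11 SE, adjusted p = 0.016). Atg101, the partner of ATG13, was at 26.8 ± 1.97 and 22.3 ± 1.18 FPKM (SD, n = 3; log2 change -0.25 ± 0.07 SE, adjusted p = 0.020). Ulk2, a second kinase gene, was at 2.23 ± 0.124 and 2.43 ± 0.655 FPKM and was not called. The called falls of initiation genes were in GC-rich transcripts, a property that moved with the result across the genome. Over all genes tested the log2 change and GC content had a Spearman correlation of -0.344. The 7 autophagy genes called lower had a median GC content of 58.0%, beside 49.0% in the 16 called higher. With that trend removed, Ulk1 was at -0.25 (adjusted p = 0.11) and Atg101 at -0.08 (adjusted p = 0.47), while total-fragment scaling put Atg101 at -0.38 (adjusted p = 0.0039). Atg101 also failed to pass when replicate 1 or 3 of WT DMSO or replicate 3 of WT Tu was left out (adjusted p = 0.060, 0.053 and 0.058).

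Of the 5 genes of the PI3-kinase complexes, 1 was higher with tunicamycin and 4 were not called. Uvrag encodes the subunit of the complex that acts in endosome and late autophagosome traffic. It was at 4.76, 4.89 and 5.24 FPKM in WT DMSO and at 7.95, 8.30 and 7.61 in WT Tu, a rise of 0.59 ± 0.07 (SE; adjusted p = 0.00032). Becn1, the gene of the shared subunit Beclin 1, had 7.73 ± 0.295 and 7.49 ± 0.949 FPKM (SD, n = 3; adjusted p = 0.69). Atg14, whose product directs the complex to new autophagosomes, had 8.07 ± 0.612 and 8.67 ± 0.260 FPKM (adjusted p = 0.34). The catalytic subunit gene Pik3c3 and its kinase-like regulator Pik3r4 differed by 0.00 and -0.11 on the log2 scale, with adjusted p = 0.99 and 0.32. For Becn1, 43.9% of exon bases lie opposite exons of Cntd1, and for Uvrag 17.6% lie opposite those of Gm45187. The strand setting of the counting is not given in the sources used here, and both partners averaged below 1 FPKM.

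Among the genes that supply and mark the growing membrane, Wipi1 and Atg2b were higher and Atg2a lower. Wipi1, which encodes a reader of the PI3-kinase lipid, was at 3.74, 3.33 and 3.35 FPKM in WT DMSO against 5.16, 4.83 and 6.31 in WT Tu (0.52 ± 0.09 SE, adjusted p = 0.0031). Its paralog Wipi2, which recruits the conjugation machinery, was at 37.8 ± 0.571 and 41.7 ± 1.42 FPKM (SD, n = 3; adjusted p = 0.054). The groups of Wipi2 did not overlap, and it passed with the GC trend removed (adjusted p = 0.025). ATG2 proteins carry lipid from the ER to the cup. Atg2b was at 5.63, 4.82 and 5.03 FPKM and then at 8.03, 6.39 and 6.49 (0.37 ± 0.09 SE, adjusted p = 0.012). Atg2a went the other way, from 11.7, 10.9 and 10.2 to 8.69, 8.67 and 9.87 FPKM (-0.24 ± 0.08 SE, adjusted p = 0.038). The Atg2a call did not hold with the GC trend removed (-0.02, adjusted p = 0.88). Nor did it hold when replicate 1 or 2 of WT DMSO or of WT Tu was left out (adjusted p = 0.11, 0.087, 0.079 and 0.10). Atg9a, which encodes the lipid scramblase of the seed vesicles, had 2.46 ± 0.271 and 2.38 ± 0.294 FPKM (adjusted p = 0.79). A noncoding gene on the same strand, Gm29253, shares 31.8% of the exon bases of Atg9a.

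Conjugation genes rose or were not called, and none of the 6 was called lower. Atg12, the ubiquitin-like protein joined to ATG5, was at 25.8, 27.5 and 27.7 FPKM in WT DMSO against 43.1, 38.5 and 43.6 in WT Tu (0.61 ± 0.06 SE, adjusted p = 0.00013). Atg5 went from 24.2, 23.7 and 23.6 to 38.7, 31.2 and 31.4 FPKM (0.48 ± 0.08 SE, adjusted p = 0.0020). Each treated library exceeded each vehicle library for both genes. Atg3, the enzyme that passes ATG8 to lipid, rose by 0.30 ± 0.06 (SE; adjusted p = 0.0053), with the GC trend removed by 0.13 (adjusted p = 0.23) and under total-fragment scaling by 0.18 (adjusted p = 0.05). Atg7, the activating enzyme at the head of the system, rose by 0.20 ± 0.06 (SE; adjusted p = 0.026). That small rise was lost without WT DMSO replicate 1 or 3 or WT Tu replicate 2 or 3 (adjusted p = 0.063 to 0.076), and under total-fragment scaling (0.08, adjusted p = 0.33). Atg16l1, which places the ATG12-ATG5 conjugate on the membrane, and Atg10, the enzyme that joins the pair, were not called (adjusted p = 0.47 and 0.51).

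ATG4 proteases trim ATG8 proteins before conjugation and release them afterwards. Of the 4 genes only Atg4c was called, at 3.01, 2.57 and 2.74 FPKM in WT DMSO against 3.94, 3.36 and 4.37 in WT Tu (0.37 ± 0.09 SE, adjusted p = 0.015). It was lost without WT DMSO replicate 2 (adjusted p = 0.054) and with the GC trend removed (adjusted p = 0.064). Atg4a, Atg4b and Atg4d differed by -0.30, 0.08 and 0.03 (adjusted p = 0.17, 0.28 and 0.86). Atg4a was lower without WT Tu replicate 1 (adjusted p = 0.047). Exons of Kri1 lie opposite 19.3% of the exon bases of Atg4d. Kri1 averaged 3.2 FPKM over the 9 libraries, beside 2.67, 2.77 and 2.41 for Atg4d in WT DMSO, WT Tu and CKO Tu.

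The 5 ATG8 genes did not move as one. Gabarap rose from 116, 115 and 109 FPKM to 144, 140 and 135 (0.30 ± 0.05 SE, adjusted p = 0.0025), and Map1lc3b from 24.4, 22.1 and 23.8 to 34.7, 30.0 and 27.3 (0.37 ± 0.09 SE, adjusted p = 0.011). Gabarapl2 fell from 46.5, 49.97 and 50.7 FPKM to 39.6, 38.5 and 36.2 (-0.36 ± 0.06 SE, adjusted p = 0.0031). For these 3 genes the groups did not overlap. Under total-fragment scaling the rises were smaller, 0.17 for Gabarap and 0.24 for Map1lc3b (adjusted p = 0.032 and 0.045), and quantile normalization gave 0.19 for Gabarap (adjusted p = 0.033). Map1lc3a had 86.5, 82.2 and 89.9 FPKM in WT DMSO against 40.7, 69.8 and 65.1 in WT Tu, with WT Tu replicate 1 well below both others. Its change of -0.59 ± 0.17 (SE; adjusted p = 0.026) became -0.35 without that library (adjusted p = 0.0015) and -0.30 with the GC trend removed (adjusted p = 0.029). Leaving out replicate 1, 2 or 3 of WT DMSO ended the call (adjusted p = 0.066, 0.054 and 0.077). Gabarapl1 was at 72.9 ± 7.20 and 65.8 ± 0.649 FPKM (SD, n = 3; adjusted p = 0.18).

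The summed FPKM of the family was 345 ± 8.78 in WT DMSO, 333 ± 10.4 in WT Tu and 345 ± 4.62 in CKO Tu (SD, n = 3). Within that sum the share of Gabarap was 32.9% ± 1.08 in WT DMSO, 42.0% ± 2.09 in WT Tu and 35.0% ± 1.56 in CKO Tu. Gabarapl2 made up 14.2% ± 0.966, 11.5% ± 0.662 and 7.40% ± 0.385, so its share was lower in each treated library than in any vehicle library. Gabarapl1 made up 21.1% ± 1.56, 19.8% ± 0.553 and 28.7% ± 1.28, highest in the 3 CKO libraries. In FPKM as deposited the sums differed little while the makeup did. Scaling to total fragments, which lowers WT Tu values relative to WT DMSO, was not applied to the sums.

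**Figure D2:**
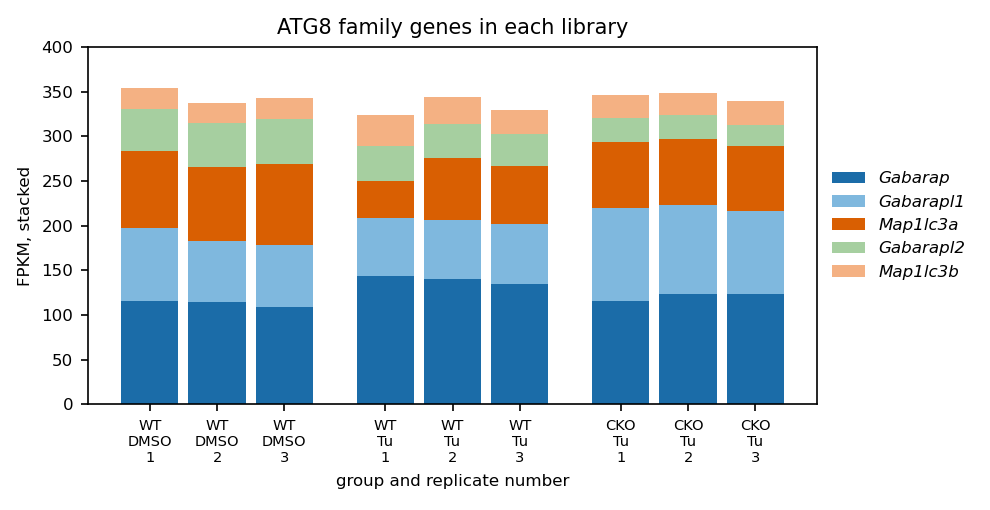
FPKM as deposited of the 5 ATG8 genes, stacked for each of the 9 libraries (3 per group, named by group and replicate number). The total averaged 345, 333 and 345 FPKM in WT DMSO, WT Tu and CKO Tu, while the green band of Gabarapl2 narrowed from 49.1 to 38.1 and 25.5 FPKM.

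ER-phagy and cargo receptor genes included the second largest rise. Retreg1 (ENSMUSG00000022270, chromosome 15, 25843180 to 25973687, mm10) encodes FAM134B, a membrane-bending receptor of ER sheets. It was at 14.9, 21.4 and 22.5 FPKM in WT DMSO and at 51.7, 43.7 and 41.1 in WT Tu. The treated libraries were all above the vehicle libraries, with a ratio of means of 2.32 and a log2 change of 1.19 ± 0.15 (SE; adjusted p = 0.00048). Nbr1, a receptor for ubiquitin-tagged cargo, rose from 27.9, 24.9 and 25.0 to 44.1, 38.2 and 37.2 FPKM (0.60 ± 0.07 SE, adjusted p = 0.00041). Optn, a receptor for damaged mitochondria and bacteria, rose by 0.33 ± 0.08 (SE; adjusted p = 0.012), and under total-fragment scaling by 0.21 (adjusted p = 0.060). Tax1bp1, another ubiquitin-binding receptor, rose by 0.26 ± 0.09 (SE; adjusted p = 0.049). Tax1bp1 was at the edge of the threshold, and lost its call without WT DMSO replicate 1, 2 or 3 (adjusted p = 0.083, 0.12 and 0.12) or WT Tu replicate 2 (0.051). Without WT Tu replicate 1 its change was 0.15 (adjusted p = 0.037). Calcoco1, a receptor for ER and Golgi, fell from 3.25, 2.71 and 2.95 to 1.86, 1.86 and 1.82 FPKM (-0.48 ± 0.07 SE, adjusted p = 0.0013), and with the GC trend removed by 0.31.

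Ccpg1, the second ER-phagy receptor gene of the set, counted 3, 6 and 3 fragments with vehicle, 2, 4 and 0 in stressed WT cells and 6, 5 and 0 in stressed CKO cells. These counts cannot be read as its level. On the same strand the overlapping gene model Gm44503 shares 42.9% of the exon bases of Ccpg1, and exons of Pigb lie opposite 28.9%. Gm44503 had 0 fragments in all 9 libraries, so fragments from the shared exons were assigned to neither gene or were absent, and the counting settings that would tell these apart are not given in the sources used here.

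TFEB and TFE3 are related transcription factors that drive lysosome and autophagy genes when they enter the nucleus, a step that mRNA does not show. Tfe3 fell from 10.6, 11.4 and 10.9 FPKM to 7.35, 8.29 and 8.40 (-0.41 ± 0.07 SE, adjusted p = 0.0017). Tfeb was below the filter, with 71, 36 and 52 fragments for vehicle against 24, 33 and 20 for tunicamycin. Every treated library of Tfeb was below every vehicle library, and an exact two-sided permutation test on FPKM gave p = 0.10, the smallest that 3 against 3 allows.

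**Figure D3:**
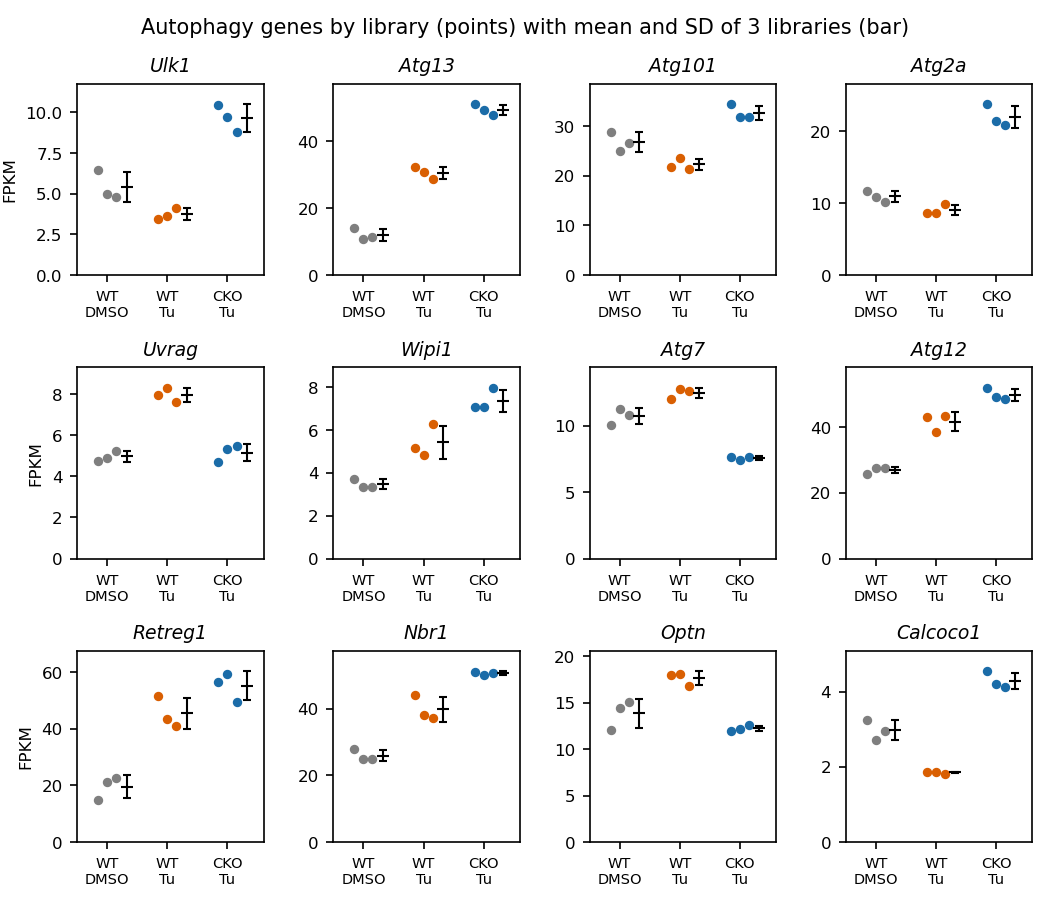
FPKM in each library (points) for 12 autophagy genes, with the mean and SD of 3 libraries beside them, in WT DMSO (grey), WT Tu (orange) and CKO Tu (blue); axes start at 0. Atg13, Wipi1, Atg12 and Nbr1 stepped up from WT DMSO to WT Tu and again to CKO Tu, while Ulk1, Atg101, Atg2a and Calcoco1 were lowest in WT Tu and highest in CKO Tu.

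Promoter sequences are shown for genes that led a change and for those with an E-box near the gene start, since CACGTG is the core of the motif that TFEB and TFE3 bind. The sequences are from RefSeq on GRCm38.p6 (mm10), the strand of the gene, 5′ to 3′, from 250 bases before the annotated RefSeq start, and end before the gene start of the deposited table. Capitals mark CACGTG. Among the 36 tested autophagy genes, Atg13 (chr2:91710593-91710842, minus strand) and Retreg1 (chr15:25843048-25843179, plus strand) had the largest rises with tunicamycin. Among the same 36, Atg2a (chr19:6241418-6241667, plus strand) had the largest log2 difference between CKO Tu and WT Tu. Ulk1 came next, and its ratio of means was higher (2.58 against 2.42). Atg3 (chr16:45158579-45158784, plus strand) and Atg5 (chr10:44268089-44268338, plus strand) hold the motif.
Atg13: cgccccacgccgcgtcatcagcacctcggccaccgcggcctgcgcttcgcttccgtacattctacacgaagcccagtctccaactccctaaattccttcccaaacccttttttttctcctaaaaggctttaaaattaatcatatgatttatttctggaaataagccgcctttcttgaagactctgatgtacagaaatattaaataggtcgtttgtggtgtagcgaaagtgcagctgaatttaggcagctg
Retreg1: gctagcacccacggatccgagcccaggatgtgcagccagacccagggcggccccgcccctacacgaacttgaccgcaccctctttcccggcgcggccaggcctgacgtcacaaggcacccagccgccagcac
Atg2a: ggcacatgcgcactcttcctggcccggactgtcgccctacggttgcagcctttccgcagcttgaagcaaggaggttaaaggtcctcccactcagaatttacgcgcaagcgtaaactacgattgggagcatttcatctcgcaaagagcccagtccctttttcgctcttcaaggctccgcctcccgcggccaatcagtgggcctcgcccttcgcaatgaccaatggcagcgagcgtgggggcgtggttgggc
Atg3: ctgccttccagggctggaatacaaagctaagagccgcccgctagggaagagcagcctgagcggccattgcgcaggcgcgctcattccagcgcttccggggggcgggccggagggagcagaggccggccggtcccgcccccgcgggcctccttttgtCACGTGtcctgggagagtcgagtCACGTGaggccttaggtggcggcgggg
Atg5: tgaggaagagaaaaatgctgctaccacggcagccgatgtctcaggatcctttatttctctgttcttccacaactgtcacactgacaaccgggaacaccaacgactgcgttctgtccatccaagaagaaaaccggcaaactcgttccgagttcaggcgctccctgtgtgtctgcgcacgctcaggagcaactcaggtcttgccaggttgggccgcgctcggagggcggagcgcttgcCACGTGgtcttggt

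The motif search covered more than the printed stretches, from 250 bases before to 50 bases after each RefSeq start. Such promoters were at hand for 32 of the 38 genes, 42 in all. There were none for Atg12, Atg16l1, Becn1, Map1lc3a, Pik3c3 and Rb1cc1. CACGTG, which reads alike on both strands, was in 5 of the 42 promoters (11.9%), beside 7.15% of 32851 promoters and 10.7% of those of tested genes. The longer GTCACGTG, which contains it, was found on either strand in 4 of the 42 (9.52%), beside 2.25% and 4.38%. In Atg3 the motif was present in 2 copies, 94 and 71 bases before the start, and in Atg5 it began 14 bases before it. The other matches, in Atg14, Atg7 and Retreg1, were at starts 2215, 27999 and 99499 bases inside the gene. The element TGATGNAAN of ATF4 and CHOP, searched on both strands, was in 0 of the 42. It was in 3.95% of all promoters and 2.31% of those of tested genes. Its form TGATGCAAT, the ER stress element (CCAAT, a gap of 9 bases of any kind, CCACG) and the element TGACGTGG were also in 0 of the 42. Their shares were 0.192%, 0.119% and 0.676% of all promoters, and 0.144%, 0.173% and 0.911% of those of tested genes. A match of letters is no evidence of binding, and a missing match says only that these letters are not in this window.

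The second comparison, CKO Tu against WT Tu, sets COX-2 deleted cells beside wild-type cells given the same dose of tunicamycin. The 2 genotypes also differ in sex. Ddit3, which encodes the stress factor CHOP, was at 289, 332 and 373 FPKM in CKO Tu against 457, 498 and 507 in WT Tu. Its log2 difference was -0.56 ± 0.15 (SE; adjusted p = 0.017), a call lost without CKO Tu replicate 1 (adjusted p = 0.065). Hspa5 was not called (-0.13, adjusted p = 0.17). Of 8 hepatocyte markers 7 were higher and 1 lower in this comparison, values whose part in the results was not tested. Of the 36 autophagy genes, 13 were higher, 7 lower and 16 not called in CKO Tu. Over all genes tested 38.3% were called, 18.7% higher and 19.6% lower, so here too the lower calls were close to the background share. The median log2 difference of the 36 genes was 0.21, and 0.00 over all genes tested. The groups of 24 of them did not overlap, beside 51.2% of all genes tested. Without WT Tu replicate 1 the counts were 16 and 7. On the log2(FPKM + 1) scale Atg2a and Ulk1 had the largest positive differences, and Atg7, Atg10, Gabarapl2 and Uvrag the largest negative ones. This comparison shares the WT Tu libraries with the first, and the values of each are given side by side with no comparison of the gene sets called.

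All 4 called initiation genes were higher in CKO Tu. Ulk1 was at 3.46, 3.61 and 4.14 FPKM in WT Tu against 10.5, 9.71 and 8.79 in CKO Tu, a ratio of means of 2.58 (1.17 ± 0.11 SE, adjusted p = 9.1e-05). The CKO libraries were also above the 3 vehicle libraries. Ulk2 was at 3.19, 2.10 and 2.01 FPKM and then at 4.20, 4.05 and 4.72 (0.65 ± 0.13 SE, adjusted p = 0.0040). Atg13 rose further, to 51.1, 49.4 and 47.9 FPKM (0.68 ± 0.09 SE, adjusted p = 0.00062), and Atg101 was at 34.4, 31.8 and 31.9 (0.53 ± 0.07 SE, adjusted p = 0.00044). Rb1cc1 was at 8.07, 7.29 and 7.76 FPKM, and overlapped WT Tu through replicate 1 of that group (adjusted p = 0.062). It passed without WT Tu replicate 1 (adjusted p = 0.0019), with total-fragment scaling (0.037) and with the GC trend removed (0.014).

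In the PI3-kinase and membrane groups the differences ran both ways. Atg2a had 8.69, 8.67 and 9.87 FPKM in WT Tu against 23.7, 21.4 and 20.9 in CKO Tu (1.19 ± 0.08 SE, adjusted p = 1.2e-05), while its paralog Atg2b differed by -0.23 ± 0.09 (SE; adjusted p = 0.066). Atg9a was higher by 0.41 ± 0.09 (SE; adjusted p = 0.0082) and Wipi1 by 0.39 ± 0.09 (SE; adjusted p = 0.012), and Wipi2 lower by 0.25 on the log2 scale (-0.25 ± 0.05 SE, adjusted p = 0.0035). Atg14 was higher, at 12.1, 11.4 and 10.6 FPKM against 8.73, 8.89 and 8.38 (0.35 ± 0.07 SE, adjusted p = 0.0044). Uvrag, which competes with ATG14 for the same complex, was lower, at 4.69, 5.31 and 5.48 FPKM against 7.95, 8.30 and 7.61 (-0.54 ± 0.07 SE, adjusted p = 0.00046). Its CKO level overlapped the vehicle libraries (adjusted p = 0.63 against WT DMSO). Becn1, Pik3c3 and Pik3r4 were not called (adjusted p = 0.72, 0.088 and 0.80), and Pik3c3 passed without WT Tu replicate 1 (0.015).

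Conjugation genes split, with Atg7 and Atg10 lower and Atg12 and Atg16l1 higher in CKO Tu. Atg7 was at 12.0, 12.7 and 12.6 FPKM in WT Tu against 7.65, 7.38 and 7.64 in CKO Tu, below every vehicle library as well (-0.65 ± 0.06 SE, adjusted p = 6.5e-05). Atg10 was at 1.95 ± 0.221 and 1.00 ± 0.274 FPKM (SD, n = 3; log2 difference -0.57 ± 0.15 SE, adjusted p = 0.018). With as few as 21 fragments in a library, Atg10 lost its call without WT Tu replicate 3 or CKO Tu replicate 1 or 3 (adjusted p = 0.057, 0.060 and 0.061). Atg12 was at 52.0, 49.4 and 48.5 FPKM (0.26 ± 0.06 SE, adjusted p = 0.012). Atg16l1 passed narrowly (0.20 ± 0.07 SE, adjusted p = 0.049) and was lost without WT Tu replicate 1, 2 or 3 (0.099, 0.067 and 0.052) or CKO Tu replicate 1 or 2 (0.16 and 0.13). Atg3 and Atg5 differed by 0.06 and -0.09 (adjusted p = 0.45 and 0.43). None of the 4 ATG4 genes was called (adjusted p = 0.097 to 0.35), and Atg4a was higher without WT Tu replicate 1 (adjusted p = 0.023). Atg4a and Tfe3 lie on the X chromosome.

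Among ATG8 genes, Gabarapl1 was higher and Gabarapl2 and Gabarap lower in CKO Tu. Gabarapl1 was at 65.1, 66.0 and 66.4 FPKM in WT Tu against 104, 99.7 and 93.2 in CKO Tu (0.58 ± 0.07 SE, adjusted p = 0.00044). Gabarapl2 was at 26.2, 26.8 and 23.6 FPKM in CKO Tu (-0.56 ± 0.06 SE, adjusted p = 0.00027), so the 3 groups stood in separate ranges, vehicle highest and CKO Tu lowest. Gabarap was at 115, 124 and 124 FPKM (-0.21 ± 0.05 SE, adjusted p = 0.013), a call lost without CKO Tu replicate 1 (adjusted p = 0.057) and with quantile normalization (-0.13, adjusted p = 0.096). Map1lc3a and Map1lc3b were not called (adjusted p = 0.13 and 0.099). Map1lc3a passed without WT Tu replicate 2 (adjusted p = 0.047) and Map1lc3b without WT Tu replicate 3 (0.032).

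Receptor genes also differed in both directions. Calcoco1 was at 4.53, 4.21 and 4.12 FPKM in CKO Tu against 1.86, 1.86 and 1.82 in WT Tu, a ratio of means of 2.32 (0.89 ± 0.07 SE, adjusted p = 4.6e-05). Nbr1 was at 51.2, 50.2 and 50.7 FPKM (0.35 ± 0.07 SE, adjusted p = 0.0064). Optn was lower, at 12.0, 12.2 and 12.6 FPKM against 18.0, 18.1 and 16.8 (-0.49 ± 0.08 SE, adjusted p = 0.0015). Tax1bp1 and Retreg1 were not called (0.21 ± 0.09 and 0.28 ± 0.15 SE, adjusted p = 0.088 and 0.18), and Tax1bp1 passed without WT Tu replicate 1 (adjusted p = 0.0011). Retreg1 had 56.8, 59.4 and 49.6 FPKM in CKO Tu. Tfe3 was at 8.01 ± 0.575 and 8.26 ± 0.400 FPKM (SD, n = 3; adjusted p = 0.68). Tfeb had 66, 90 and 72 fragments in CKO Tu, each above all WT Tu libraries (exact two-sided permutation p = 0.10, the smallest possible).

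Set against the unstressed wild type, CKO Tu had 18 autophagy genes higher and 4 lower of 36. In this comparison 49.5% of all genes tested were called, 25.3% higher and 24.2% lower. For 28 of the 36 the groups did not overlap, beside 63% of all genes tested. The comparison joins treatment, deletion and sex in 1 difference and shares its libraries with the other comparisons. All 5 initiation genes were higher, from 0.28 ± 0.07 for Atg101 to 1.96 ± 0.09 for Atg13 (SE; adjusted p = 0.0081 and 5.9e-07). Retreg1 was higher by 1.47 ± 0.15 (SE; adjusted p = 6.6e-05). The 4 lower genes were Gabarapl2 (-0.92 ± 0.06), Atg7 (-0.45 ± 0.06), Atg10 (-0.42 ± 0.15) and Tfe3 (-0.37 ± 0.07 SE). Atg10 no longer passed when replicate 1 or 2 of WT DMSO or replicate 1 or 3 of CKO Tu was left out (adjusted p = 0.12 to 0.14).

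A further list held 56 other genes of autophagy, ER-phagy, mitophagy and their upstream regulators, of which 54 passed the filter. With tunicamycin in WT cells 19 were higher, 7 lower and 28 not called, with a median log2 change of 0.06. Over all genes tested 17.7% were higher and 15.9% lower, and 7 of 54 is no more than that share. Under total-fragment scaling these counts were 12 and 14, so the balance of this list depends on the scaling. Other ER-phagy receptor genes, named here after their values were seen, did not follow Retreg1 as a group. Its paralog Retreg3 fell from 29.6, 26.6 and 28.6 FPKM to 9.97, 11.2 and 10.1 (-1.36 ± 0.06 SE, adjusted p = 1.2e-06), the largest change of the list. Tex264 and Atl3, 2 further receptors, fell by 0.43 and 0.40 on the log2 scale (-0.43 ± 0.09 and -0.40 ± 0.09 SE; adjusted p = 0.0066 and 0.0076), and Tex264 by 0.19 with the GC trend removed (adjusted p = 0.018). Sec62 and Rtn3 rose by 0.29 ± 0.08 and 0.30 ± 0.08 (SE; adjusted p = 0.017 and 0.023). Both of those rises were lost without WT DMSO replicate 2 or 3 (adjusted p = 0.056 to 0.085). Retreg2 was not called (adjusted p = 0.20). It was called lower with upper-quartile scaling, quantile normalization and total-fragment scaling (adjusted p = 0.046, 0.02 and 0.0082).

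Among the other genes with the largest changes, Fnip1, a partner of folliculin in nutrient signalling to TFEB and TFE3, went from 11.7, 16.9 and 15.8 to 43.6, 35.8 and 34.9 FPKM (1.32 ± 0.13 SE, adjusted p = 0.00013). Ufl1 and Cdk5rap3, which attach the ubiquitin-like protein UFM1 at the ER, rose by 1.20 ± 0.09 and 1.11 ± 0.10 on the log2 scale, and Tmem41b, an ER lipid scramblase, by 1.21 ± 0.08 (SE; adjusted p = 2.2e-05, 8.3e-05 and 9.3e-06). Treated and vehicle libraries did not overlap for any of these 4. Ddit4, an inhibitor of mTOR, fell by 0.98 on the log2 scale (-0.98 ± 0.15 SE, adjusted p = 0.0013). Phb2, a mitophagy receptor of the inner membrane, and Rptor, a subunit of mTORC1, changed by -0.66 ± 0.10 and -0.64 ± 0.06 (SE; adjusted p = 0.0013 and 5.5e-05).

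**Figure D4:**
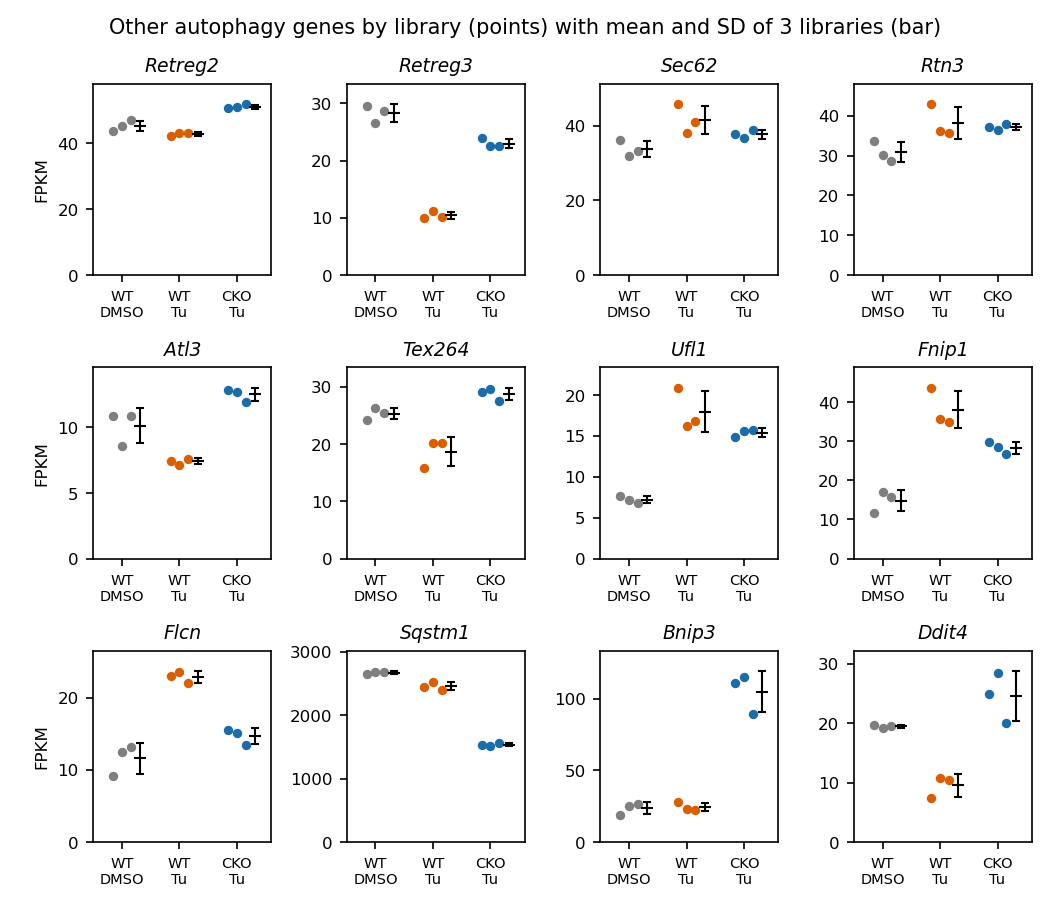
FPKM in each library (points) for 12 genes of the wider autophagy list, with the mean and SD of 3 libraries, in WT DMSO (grey), WT Tu (orange) and CKO Tu (blue); axes start at 0. Retreg3 and Ddit4 were lowest in WT Tu, Bnip3 was raised in CKO Tu alone (89 to 115 FPKM), and Sqstm1 was lowest in CKO Tu.

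In CKO Tu against WT Tu the same list had 19 genes higher and 11 lower, with 24 not called and a median of 0.12. Beside the 18.7% higher and 19.6% lower over all genes tested, the lower calls were near the background share. Bnip3 and Bnip3l, which encode mitophagy receptors, led the list. Not all such receptor genes differed, and Phb2 and Fundc1 were not called (0.12 and 0.04, adjusted p = 0.37 and 0.82). Bnip3 was at 28.0, 22.8 and 22.5 FPKM in WT Tu against 111, 115 and 89.0 in CKO Tu (2.06 ± 0.15 SE, adjusted p = 2e-05). Bnip3l was at 25.1, 19.9 and 19.8 FPKM and 59.5, 57.2 and 51.8 (1.34 ± 0.10 SE, adjusted p = 2.1e-05). With tunicamycin in WT cells neither was called. Bnip3 overlapped the vehicle libraries (adjusted p = 0.79), and Bnip3l was above all of them, which had 17.7, 19.02 and 17.2 FPKM (adjusted p = 0.083). Trp53inp1, a stress protein that binds ATG8, was higher by 1.34 ± 0.18 and Ddit4 by 1.28 ± 0.15 (SE; adjusted p = 0.00061 and 0.00030). Retreg3 was higher by 1.07 ± 0.06 (SE; adjusted p = 6.6e-06), at 23.9, 22.6 and 22.5 FPKM, still below the vehicle libraries. Atl3, Tex264 and Retreg2 were also higher in CKO Tu, by 0.68, 0.60 and 0.25 (adjusted p = 0.00042, 0.001 and 0.0027). Sec62 and Rtn3 were not called (-0.13 and -0.04, adjusted p = 0.20 and 0.75).

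Sqstm1, which encodes the receptor p62, was far more abundant than any of the 38 genes. The vehicle libraries had 2650, 2679 and 2680 FPKM, the WT Tu libraries 2445, 2518 and 2392, and the CKO Tu libraries 1535, 1520 and 1553. The fall from WT Tu to CKO Tu was 0.67 on the log2 scale (-0.67 ± 0.05 SE, adjusted p = 2.1e-05), and the step from WT DMSO to WT Tu was not called (-0.12, adjusted p = 0.084). That step was called lower with total-fragment scaling (-0.26, adjusted p = 0.0049), upper-quartile scaling (-0.18, 0.024) and a weight per library (-0.12, 0.041). Fnip2 and Flcn, the latter encoding folliculin, were lower in CKO Tu (-0.80 ± 0.08 and -0.61 ± 0.12 SE; adjusted p = 0.00014 and 0.0037), as was Epg5, a tether for fusion with lysosomes (-0.60 ± 0.07 SE, adjusted p = 0.00031). With tunicamycin alone Flcn had gone from 9.19, 12.4 and 13.2 to 23.0, 23.5 and 22.0 FPKM (0.94 ± 0.12 SE, adjusted p = 0.00042).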

How the data were processed

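Expression was analysed in 9 libraries, 3 per group, in 1 table in which the authors deposited FPKM for 54532 genes. The submitters' processing notes name HISAT2 2.2.1, featureCounts 1.5.0-p3 and the mouse build mm10. The annotation release, strand setting and treatment of fragments that fit several genes are not given in the sources used here. The exon lengths of 37 of the 38 genes equalled those of GENCODE M21. Whole fragments per gene were recovered as FPKM times length over what 1 fragment is worth in that library (100% of values whole, tolerance 0.001 fragments). Library sizes behind FPKM were 1.057 to 1.070 times total fragments in WT DMSO, 0.948 to 0.984 in WT Tu and 1.005 to 1.010 in CKO Tu. The groups did not overlap in this ratio, so scaling to total fragments lowers WT Tu values relative to WT DMSO. Depth limits the precision of genes with few fragments, the fewest in any of the 36 tested autophagy genes in a library being 21 (Atg10).

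Tests used limma 3.58.1 in R 4.3.3 on log2(FPKM + 1) fitted to the 9 libraries together with 1 mean for each group, two-sided, with limma's trend option, with Benjamini-Hochberg adjustment over the 11858 genes tested. Adding 1 understates changes of genes with low FPKM. The steps were tested on simulated data. Alternatives were another pseudocount, filter, scaling, sample set or spread, voom on fragments, the replicate block and each library left out. Removal of a GC trend (lowess span 0.3) was added after seeing the data. Named were all 38 genes and, from the wider list, up to 4 with the largest called change per direction in the first 2 comparisons. Retreg2, Tex264, Atl3, Sec62, Rtn3 and Fundc1, and further values of Retreg3, Phb2 and Flcn, were named outside that rule, after their values were seen. The members and lists were chosen with earlier results of these data known.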

Additional observations from a re-analysis of the deposited data

How the results depend on the processing

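Counts of called genes kept within 1.5 times under most alternatives. In WT Tu against WT DMSO, total-fragment scaling gave 3108 genes lower, and 12 higher and 14 lower in the wider autophagy list. The split of all calls was 31.5% higher with that scaling and 42.3% with upper-quartile scaling, against 52.7% as deposited. In CKO Tu against WT DMSO it was 42.4% with upper-quartile and 42.7% with total-fragment scaling, against 51.1%. Leaving out 1 library gave 13 to 16 of the 38 genes higher and 4 to 7 lower in WT Tu against WT DMSO, with 4 lower without WT DMSO replicate 1. In CKO Tu against WT Tu it gave 12 to 16 higher and 5 to 7 lower, and 7 to 12 lower in the wider list, with 7 without CKO Tu replicate 1. Hspa5 in CKO Tu against WT Tu was the one value that changed sign beside a call, at 0.27 with quantile normalization (adjusted p = 0.0029). Of the called autophagy genes, 13 of 23 in WT Tu against WT DMSO, 17 of 20 in CKO Tu against WT Tu and 20 of 22 in CKO Tu against WT DMSO were called under every alternative that tested them. The cause of the lost calls was not tested.

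The replicate numbers did not pair the libraries: deviations of same-numbered libraries correlated at -0.097 to 0.021. With the replicate block, 16 autophagy genes were higher and 6 lower in WT Tu against WT DMSO, and 13 and 7 in CKO Tu against WT Tu. Under the block Atg2a lost its call in WT Tu against WT DMSO (adjusted p = 0.060), Atg16l1 in CKO Tu against WT Tu (0.084) and Atg10 in CKO Tu against WT DMSO (0.062), while Rb1cc1 gained one in CKO Tu against WT Tu (0.022). Tfeb and Ccpg1 did not pass the filter on FPKM and entered only the fit without a filter.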
